A study of Mus musculus with 44 samples.

Results

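Genes that encode proteins of the myelin sheath, or of the mature oligodendrocyte that makes it, were measured in mouse dorsal hippocampus and are described here across genotype and time after training. They are Mbp, Mobp, Mag, Mog, Mal, Cnp, Cldn11, Opalin and Ermn, chosen by symbol, and all 9 were found among the 27179 genes counted in each library. The study asked how the demethylase KDM5B affects hippocampal gene expression before and after learning. Poly(A) RNA was sequenced in 36 libraries with 6 in each of 6 groups, of which 3 were labelled male and 3 female. WT mice and homozygous Kdm5bDARID/DARID mice (mutants below) were taken from the home cage (0 h), 1 h after contextual fear conditioning, in which mice receive foot shocks in a new chamber, or 3 h after it. Both genotypes were adult mice from heterozygous intercrosses on a C57BL/6J and 129S2/Sv F2 background, so linked alleles of the 2 strains could not be told apart from the mutation. The mutant allele is carried by every cell from conception, lacks the exons for the ARID domain, which disrupts H3K4me3 demethylase activity of the protein.

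Myelin is a spiral of oligodendrocyte membrane around the axon. In compact myelin the cytoplasm is squeezed out and the membrane faces are held together, whereas the inner tongue next to the axon, the outer tongue and the paranodal loops keep cytoplasm. Oligodendrocytes arise from dividing precursors under SOX10, OLIG2 and later MYRF, and in the hippocampus they are concentrated in the alveus and fimbria, with fewer in the layers of neuronal cell bodies. In bulk tissue, more oligodendrocytes in a sample and more RNA per oligodendrocyte cannot be told apart.

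The libraries held 40274435 to 107000233 counts (median 66549999), and no pair within a group was identical. Transcripts that mark sex went against the label in 2 libraries. The WT 1 h library labelled male 1 had 51186 Xist counts and 0 on the 4 Y-linked genes, and the mutant 3 h library labelled female 2 had 36 Xist counts and 10239 on those genes. Values without these libraries stand beside the main results that use them. Counts on Kdm5b were 88.7 ± 4.14 CPM (counts scaled to library size; SD, n = 18) in WT and 83.8 ± 4.83 CPM (SD, n = 18) in mutants, and since most of the gene lies outside the deleted exons this level does not check the genotype labels. Markers of dentate granule cells summed to 152 to 371 CPM, of CA1 to 759 to 1205 CPM and of CA3 to 809 to 1305 CPM, so the labelled tissue was seen in every library.

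By RefSeq position, each of the genes is a single locus of GRCm38 (mm10). Mag (Entrez 17136) lies on chromosome 7 (30899175 to 30914922), Mog (17441) on chromosome 17 (37010740 to 37023398) and Mobp (17433) on chromosome 9 (120149742 to 120181488). Cnp (12799) lies on chromosome 11 (100574909 to 100591875) and Cldn11 (18417) on chromosome 3 (31149920 to 31164326). Opalin (226115) is on chromosome 19 (41061959 to 41077113), and chromosome 2 holds both Mal (17153, 127633226 to 127656695) and Ermn (77767, 58045115 to 58052864). In the GENCODE M21 annotation some of the genes overlap another gene with which reads could be shared: Dnajc7 lies opposite Cnp, Galnt5 opposite Ermn, Gm22388 opposite Mog, Rpl21-ps8 opposite Mbp, and Gm38642 on the same strand as Mobp. Whether counting used strand is not given in the sources used here, so the part of shared reads was not tested.

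Promoter sequences of 300 bases (250 before and 50 after the start) were read from the RefSeq table for GRCm38.p6, which held 8 of the 9 genes, all but Mbp (3 windows for Mag and 1 for each of the others). They are shown for Opalin and Mobp, the genes whose level relative to the others differed most between times, and for Mal and Cldn11, the pair most alike across libraries. Capitals mark matches on either strand to CTGGNAC (MYRF), ACAAAG or ACAATG (SOX factors) and CAGCTG (an E-box), and no matches overlapped.
Opalin, chr19:41077064-41077363, minus strand: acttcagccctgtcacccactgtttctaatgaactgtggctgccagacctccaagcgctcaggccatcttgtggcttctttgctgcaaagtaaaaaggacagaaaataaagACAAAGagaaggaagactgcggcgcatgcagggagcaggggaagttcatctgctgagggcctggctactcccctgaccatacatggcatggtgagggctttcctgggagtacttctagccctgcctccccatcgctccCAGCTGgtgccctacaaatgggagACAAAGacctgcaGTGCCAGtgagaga
Mobp, chr9:120149492-120149791, plus strand: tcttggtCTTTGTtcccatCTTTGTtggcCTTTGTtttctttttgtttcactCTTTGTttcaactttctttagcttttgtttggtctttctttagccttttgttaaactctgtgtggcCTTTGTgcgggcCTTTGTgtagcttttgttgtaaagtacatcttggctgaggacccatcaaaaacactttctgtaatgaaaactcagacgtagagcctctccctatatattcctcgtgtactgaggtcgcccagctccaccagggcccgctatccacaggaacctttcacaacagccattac
Mal, chr2:127656646-127656945, minus strand: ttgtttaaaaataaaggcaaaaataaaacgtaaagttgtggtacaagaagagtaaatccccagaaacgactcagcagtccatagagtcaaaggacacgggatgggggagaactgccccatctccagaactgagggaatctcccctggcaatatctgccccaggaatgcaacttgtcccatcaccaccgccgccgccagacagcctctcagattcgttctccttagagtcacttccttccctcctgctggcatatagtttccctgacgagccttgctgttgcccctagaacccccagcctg
Cldn11, chr3:31149670-31149969, plus strand: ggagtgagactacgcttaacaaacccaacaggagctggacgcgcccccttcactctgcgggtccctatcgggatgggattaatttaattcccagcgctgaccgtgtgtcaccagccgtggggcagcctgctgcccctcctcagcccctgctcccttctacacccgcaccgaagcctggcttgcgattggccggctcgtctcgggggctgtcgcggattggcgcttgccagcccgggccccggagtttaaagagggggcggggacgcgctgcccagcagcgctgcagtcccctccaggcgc
The Mobp window held 6 matches to ACAAAG, all as the reverse complement CTTTGT, a count reached in 1 of the 32851 promoters in the table. The Opalin window held a match to each of CTGGNAC and CAGCTG and 2 to ACAAAG, and those of Mal and Cldn11 held none of these letters. CTGGNAC was present in Cnp, Mag, Mog and Opalin and in 19.3% of all promoters, ACAAAG in Cnp, Mag, Mobp and Opalin and in 18.7%. ACAATG was found in Ermn and in 12.6% of all promoters, and CAGCTG in Opalin and in 16.3%. Of the 10 windows of these 8 genes, 7 held at least 1 match, against 51.6% of all promoters, and 6 of the 8 genes had such a window. A match describes the letters only.

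Levels were compared between the genes per kilobase of exon, as mean CPM per kb over the 36 libraries. Mbp, which holds the cytoplasmic faces of compact myelin together, stood first at 418 CPM per kb. Cnp, an enzyme of the cytoplasm-filled channels, Cldn11, the tight junction protein between the turns of the sheath, and Mal, a proteolipid of membrane sorting, followed at 140, 139 and 131 CPM per kb. Mobp, a small basic protein of compact myelin, Mog, on the outermost surface of the sheath, and Mag, the adhesion molecule facing the axon, lay together at 61.3, 59.7 and 57.5 CPM per kb. Ermn, a cytoskeletal protein of mature oligodendrocytes, had 22.01 and Opalin, a membrane glycoprotein of mature oligodendrocytes, 10.1 CPM per kb. Neighbours within the group of Cnp, Cldn11 and Mal, and within that of Mobp, Mog and Mag, differed by less than the spread between libraries of a group, which was 9.49 to 31.6% of the mean for Cldn11 and 8.96 to 31.8% for Mog.

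Together the 9 genes took 0.361 to 0.882% of a library's counts (median 0.549%), a range of 2.44-fold. The lowest share was in the WT 3 h library labelled female 2 and the highest in the mutant 3 h library labelled female 2. From 0 h through 1 h to 3 h the mean share was 0.540 ± 0.132, 0.548 ± 0.0853 and 0.501 ± 0.121% for WT, and 0.575 ± 0.0815, 0.559 ± 0.0489 and 0.602 ± 0.175% for mutants (SD, n = 6 each). The groups overlapped throughout, and without the 2 libraries of discordant sex the WT 1 h mean was 0.552 ± 0.0947% and the mutant 3 h mean 0.546 ± 0.122% (SD, n = 5 each).

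Each gene varied over the same range as the whole set, from 2.14-fold between the lowest and highest library for Cnp to 2.73-fold for Opalin. Mbp ran from 2447 through a median of 3344 to 4717 CPM in WT at 0 h, from 2955 through 3393 to 4213 CPM at 1 h and from 2272 through 2992 to 4363 CPM at 3 h. In mutants Mbp ran from 3014 through 3558 to 4221 CPM at 0 h, from 3226 through 3512 to 4168 CPM at 1 h and from 2755 through 3761 to 5509 CPM at 3 h. All 6 ranges overlapped, and the values at 1 h in mutants were the closest together. The mutant 3 h library labelled female 2 was the highest of 36 for 7 of the 9 genes; Ermn was highest in the WT 0 h library labelled male 1 and Opalin in the mutant 0 h library labelled male 1. The lowest library was WT 0 h female 1 for Cnp, Cldn11, Mal, Mobp, Mog and Mag, and WT 3 h female 2 for Mbp, Ermn and Opalin.

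**Figure D1:**
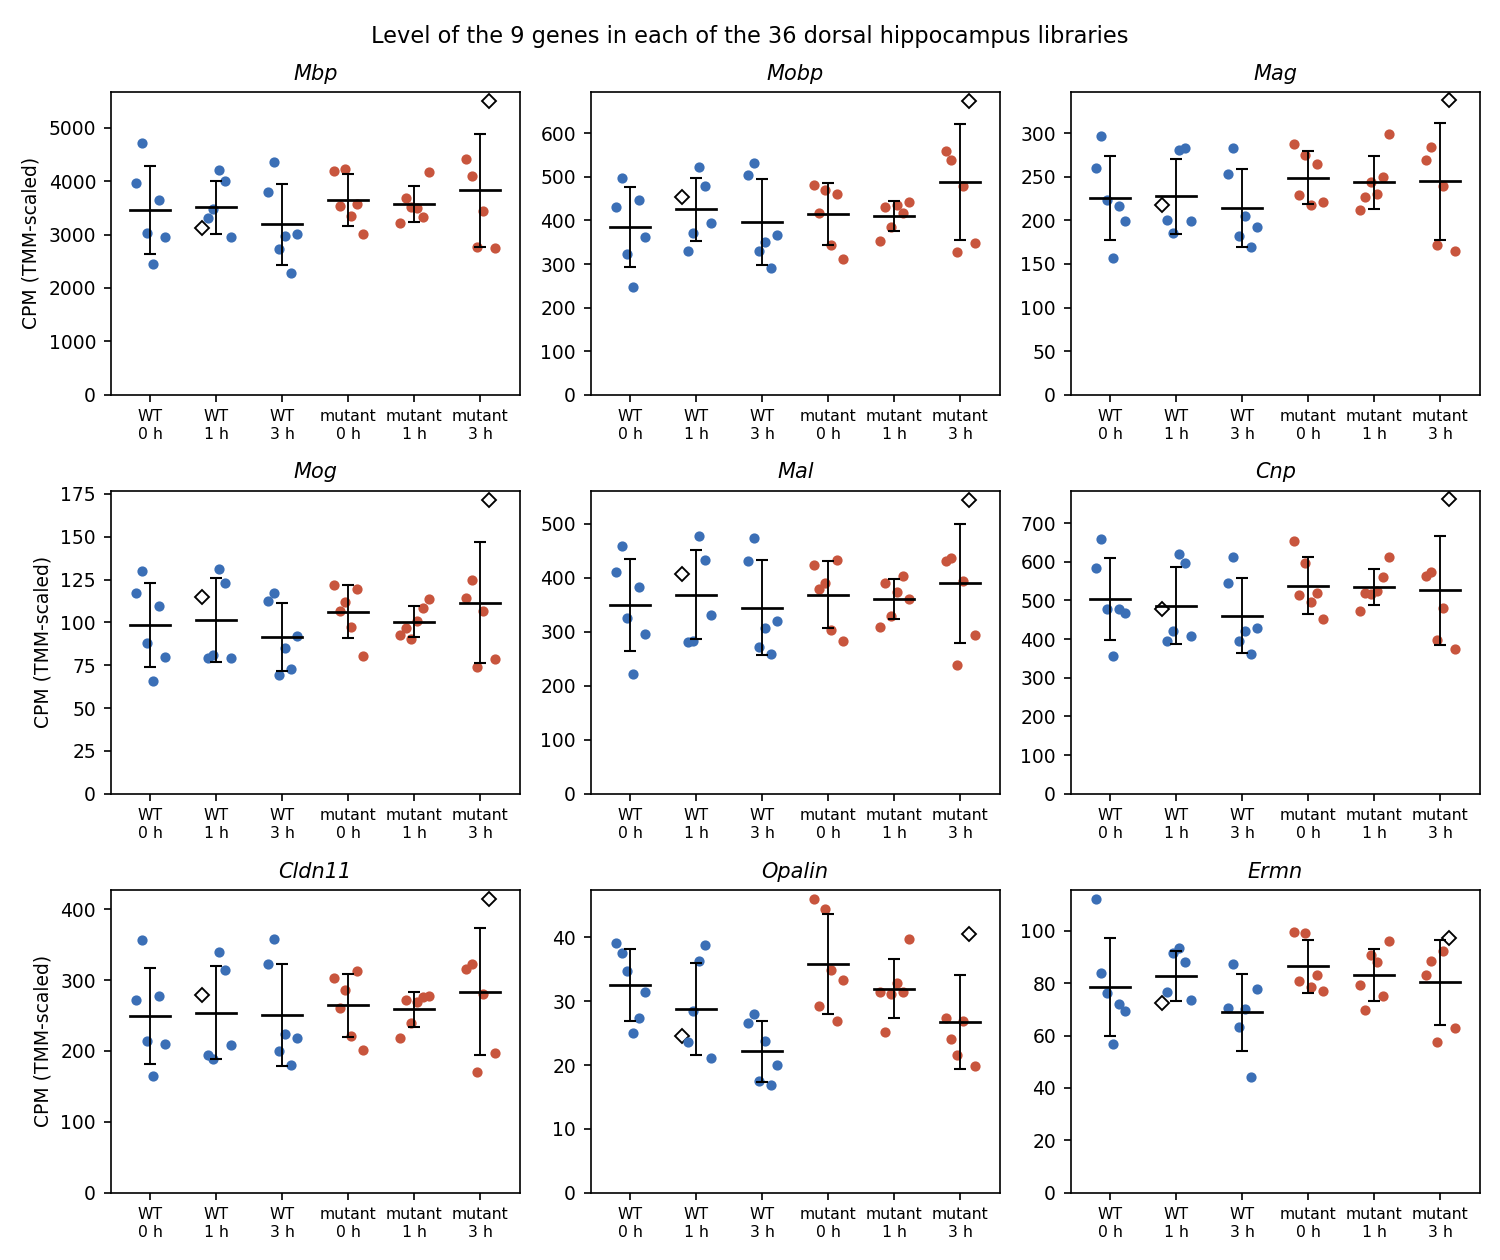
TMM-scaled CPM of each gene (y axis, from 0) in the 36 libraries by genotype and time (x axis). Points are libraries, open diamonds the 2 libraries whose sex transcripts went against the label, bars the group mean and whiskers 1 SD (n = 6). The groups overlap for every gene, and Opalin at 3 h has means of 22.1 CPM in WT and 26.7 CPM in mutants against 32.6 and 35.8 CPM at 0 h.

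Between libraries of one group the genes moved more than most genes did. The SD of log2 CPM within groups was 0.26 for Ermn, 0.28 for Cnp and Mbp, 0.29 for Mag, 0.31 for Mobp and Opalin, 0.33 for Mog and Mal and 0.36 for Cldn11. Over all 18186 genes tested the median SD was 0.17, and the 9 genes lay at percentiles 64.8 to 73.7. Without the 2 libraries of discordant sex their SDs were 0.25 (Mbp) to 0.35 (Cldn11), at percentiles 64.2 to 73.3, against a median of 0.16.

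The libraries that were high for one myelin gene were high for the others. With group and sex means removed, Pearson's r between 2 of the genes over the 36 libraries was 0.63 to 0.99 with a median of 0.91 over 36 pairs, and Spearman's rho was 0.57 to 0.98. These are descriptions, since the points of a library share its dissection, depth and scaling. Mal and Cldn11 were most alike (r = 0.99), and Mal and Opalin least (r = 0.63). Opalin and Ermn stood a little apart from the other 7 genes, with a median r of 0.74 and 0.73 with the rest, where the other 7 had 0.91 to 0.94. Without the 2 libraries of discordant sex the pairs gave 0.59 to 0.98 (median 0.91), and without the 2 libraries farthest from the median in the mean score of the genes, mutant 3 h female 2 and mutant 3 h male 3, 0.56 to 0.98 (median 0.88).

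**Figure D2:**
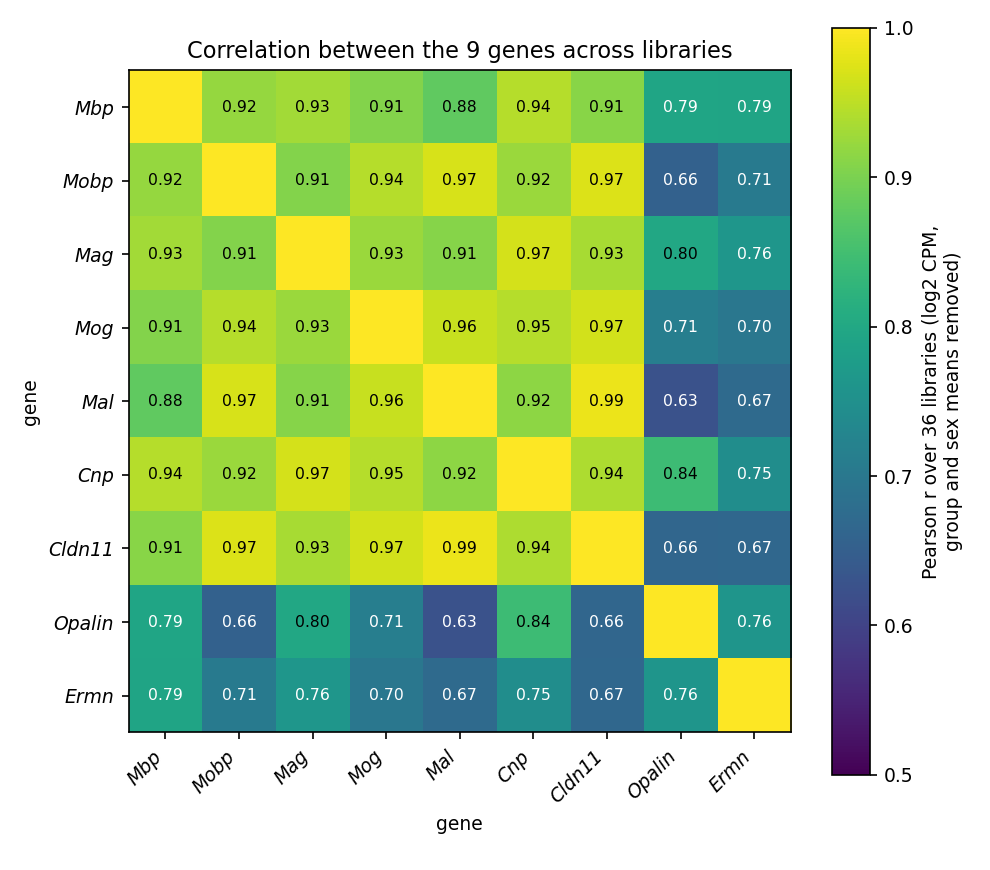
Pearson's r over 36 libraries between each pair of the 9 genes (colour and printed value), from log2 CPM with group and sex means removed. The block from Mbp to Cldn11 lies between 0.88 and 0.99, and the rows of Opalin and Ermn between 0.63 and 0.84.

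The gene outside the set most like its mean score was Tspan2, a tetraspanin of oligodendrocytes (r = 0.95 over 36 libraries). Lpar1, a lysophosphatidic acid receptor, had r = 0.95, and Ugt8a and Fa2h, enzymes that make the galactolipids of myelin, r = 0.93 and 0.92. Pacs2, Gltp (a glycolipid transfer protein), Cers2 (a ceramide synthase) and Gjc3 (a gap junction protein) each had r = 0.92 or 0.91, and Sirt2 (a deacetylase) had 0.90.

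Of 27 other genes of mature oligodendrocytes and myelin, 26 had r above 0.5 with the mean score of the 9 genes, and the mean score of that list followed it with r = 0.96. Its range was 3015 to 6382 summed CPM over all libraries. The mean score of 14 genes of precursors and newly formed oligodendrocytes had r = 0.82 and that of 12 lineage transcription factors 0.80, with Myrf the highest of the factors at 0.75. Single genes of the precursor list ran from -0.14 for Tnr to 0.88 for Bcas1, a gene of newly formed oligodendrocytes. Their median was 0.51, with 7 of 14 above 0.5. The precursor markers Pdgfra and Cspg4 had 0.28 and 0.15, so the score of this mixed list does not describe precursors alone.

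Markers of neighbouring tissue and of other cells moved with the 9 genes to unequal degrees. The mean score of 7 thalamus markers had r = 0.58 with that of the 9 genes, that of 7 striatum markers 0.46, and that of 8 choroid plexus markers 0.22. The neuron list (6 genes) had r = -0.58 and the CA3 list (5 genes) r = -0.57. Without the 2 libraries of discordant sex these values were 0.49 for thalamus, 0.45 for striatum, 0.16 for choroid plexus, -0.54 for neurons and -0.50 for CA3, and those of the mature, precursor and factor lists 0.95, 0.81 and 0.79. Peripheral myelin genes of Schwann cells were low, at 17.99 to 27.2 summed CPM for 5 genes, of which 3 passed the filter on low counts. The library with the highest score of the 9 genes, mutant 3 h female 2, also had a thalamus score of 1.47 SD and neuron and CA3 scores of -1.18 and -1.47 SD. The part of dissection in the spread of the 9 genes was not tested.

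**Figure D3:**
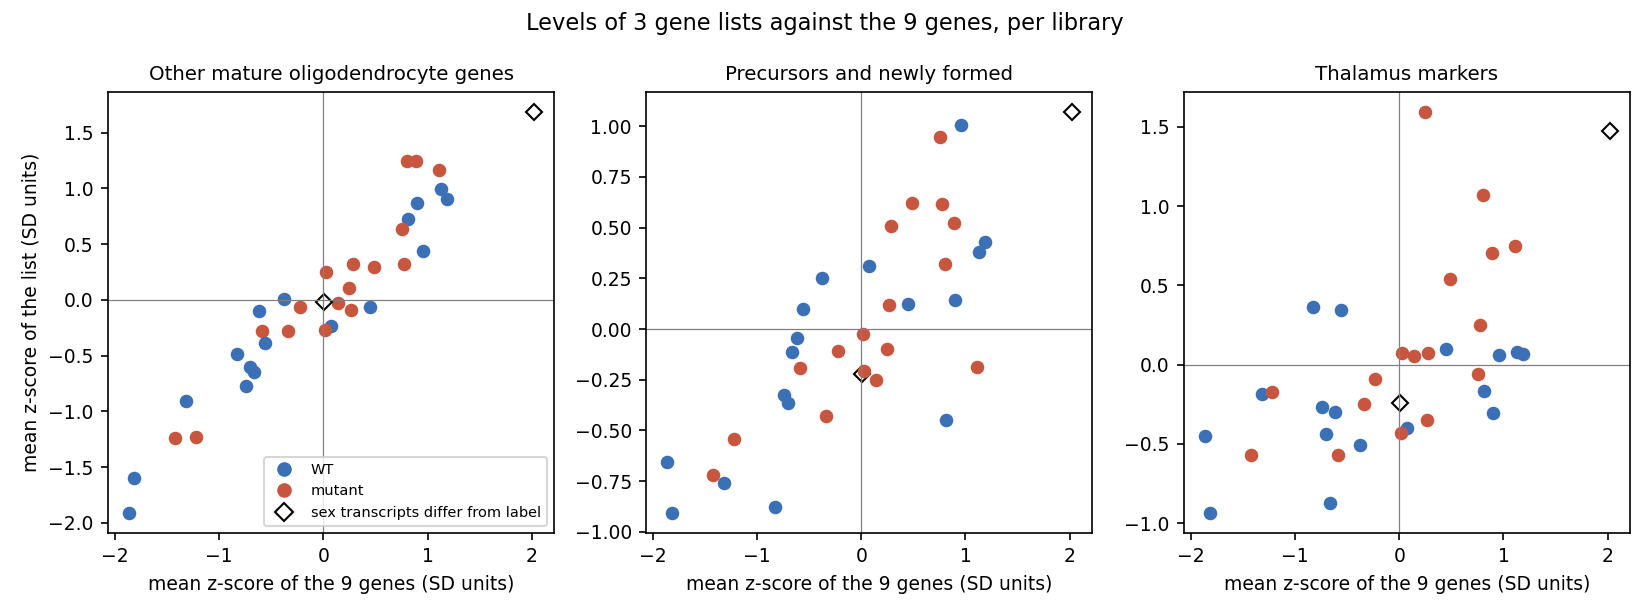
Mean z-score of 3 gene lists (y axis) against the mean z-score of the 9 genes (x axis) in each of 36 libraries, WT in blue and mutant in red, with open diamonds for the 2 libraries of discordant sex. The other mature oligodendrocyte genes follow the 9 genes closely (r = 0.96 with group and sex means removed). The mixed list of precursors and newly formed oligodendrocytes follows less (0.82) and thalamus markers least (0.58).

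Genotype was compared first in untrained mice. At 0 h all 9 genes had a higher fitted level in mutants, with log2 fold changes of 0.08 to 0.15 and a median of 0.10, where 49.3% of the 17336 genes tested were higher. None of the 9 was called at an adjusted p under 0.05 by edgeR's quasi-likelihood test, which called 0% of all genes. None had an unadjusted p under 0.05, against 6.15% of all genes. The gene with the largest difference was Mag, with 157, 220 and 297 CPM as the lowest, median and highest value in WT and 218, 247 and 287 CPM in mutants. The fitted difference was 0.15 on the log2 scale (95% interval -0.07 to 0.38, SE 0.10), with an edgeR adjusted p of 0.872, and the groups overlapped. The median over the 9 genes was 0.034 without WT female 1 and 0.17 without WT female 2. Markers of neighbouring tissue differed more in the same libraries: 6 of 7 thalamus genes were higher in mutants (median 0.35), 5 of 7 striatum genes higher (median 0.41, 3 with an unadjusted p under 0.05) and 8 of 8 choroid plexus genes lower (median -1.999), none of them called. Their part in the difference of the 9 genes was not tested.

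At 1 h after training 6 of the 9 genes were higher in mutants and 3 lower, with a median log2 fold change of 0.03 and a range of -0.05 (Mobp) to 0.16 (Opalin). Higher values were fitted for 49% of all 17261 genes, and edgeR called 0% of them and 0 of the 9. None of the 9 had an unadjusted p under 0.05, against 8.61% of all genes. Leaving out the WT library labelled male 1 turned Mobp, Mog and Mal to higher values and Ermn to a lower one, so that 8 of 9 were higher with a median of 0.07. Opalin ran from 21.1 through 26.5 to 38.7 CPM in WT and from 25.2 through 31.5 to 39.8 CPM in mutants, the largest difference at this time with all libraries (0.16 on the log2 scale, SE 0.13, edgeR adjusted p = 0.794). It was 0.057 without WT female 3 and 0.23 without WT female 2, and without WT male 1 it was 0.14, under the 0.17 of Cnp. In the same comparison 8 of 8 choroid plexus genes were lower in mutants (median -2.10) and 5 of 7 thalamus genes higher (0.14), none called. Without WT male 1, 8 of 8 choroid plexus genes were lower (-2.435, 8 with an unadjusted p under 0.05) and 6 of 7 thalamus genes higher (0.08). In that fit 11 of 12 lineage transcription factors were higher (0.10, 5 with such a p, against 10.3% of all genes), and no gene of these lists was called. The part of these other tissues in the values of the 9 genes was not tested.

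At 3 h all 9 genes were again higher in mutants, by 0.19 (Mal) to 0.32 (Mobp) on the log2 scale with a median of 0.22, where 50.2% of 17394 genes were higher. None was called, against 0.0115% of all genes, nor had any an unadjusted p under 0.05, against 6.36%. Mobp ran from 292 through 359 to 532 CPM in WT and from 327 through 510 to 673 CPM in mutants. In 3 of 6 mutant libraries it exceeded every WT library, but its interval spanned 0 (log2 fold change 0.32, SE 0.21, 95% interval -0.14 to 0.77, edgeR adjusted p = 0.854). Without the library labelled female 2, which carries male transcripts, the median was 0.10, with all 9 still higher by 0.028 (Cldn11) to 0.17 (Mobp). Without the mutant library labelled male 3, the lowest of that group in the mean score, the median was 0.34. Markers of other tissue differed in the same libraries, none of them called: 8 of 8 choroid plexus genes were lower in mutants (median -0.68, and -1.75 without female 2), 7 of 7 thalamus genes higher (0.22, and 4 of 7 at 0.04 without it), 5 of 7 striatum genes higher (0.08 and 0.12), 4 of 6 dentate granule cell genes higher (0.18 and 0.25) and 6 of 7 astrocyte genes higher (0.09 and 0.08). Their part in the difference of the 9 genes was not tested.

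With the 3 times pooled, 18 libraries a genotype, the 9 genes were all higher in mutants by 0.08 (Mal) to 0.19 (Opalin), with a median log2 fold change of 0.13 against 0.00051 over all 18186 genes, of which 50.3% were higher. None of the 9 was called by edgeR, against 1.3% of all genes, and none had an unadjusted p under 0.05, against 15.2%. Opalin came closest (log2 fold change 0.19, SE 0.10, 95% interval -0.01 to 0.39, unadjusted p = 0.0654, edgeR adjusted p = 0.361), and its level exceeded the average of WT in 11 of 18 mutant libraries. For Cnp, which differed by 0.14 (SE 0.09) at an edgeR adjusted p of 0.469, 13 of 18 did. Without the libraries of discordant sex Opalin differed by 0.11 (edgeR adjusted p = 0.574), Cnp by 0.08 (0.672) and the 9 genes by 0.04 (Mal) to 0.11. The median over the 9 genes was 0.075 without mutant 3 h female 2 alone and 0.08 without both libraries of discordant sex. The 18 libraries of a genotype were taken at 3 times, and since the 9 genes vary together these signs are not 9 separate observations.

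No other gene of the lineage lists was called in this pooled comparison. All 27 other mature oligodendrocyte and myelin genes were higher in mutants (median 0.12), 5 of them with an unadjusted p under 0.05, against 15.2% of all genes. Among them were Gal3st1, which makes sulfatide (14.8 ± 1.85 CPM in mutants against 12.9 ± 1.94 CPM in WT; log2 fold change 0.21, edgeR adjusted p = 0.104), and Hapln2, a link protein of the node of Ranvier (0.19, adjusted p = 0.273). Of 12 lineage transcription factors 11 were higher (median 0.10), with Tcf7l2 (0.24, adjusted p = 0.235), Nkx6-2 (0.18, adjusted p = 0.253) and St18 (0.13, adjusted p = 0.241) first. Tcf7l2 is also a marker of thalamic neurons. Of 14 precursor genes 10 were higher (median 0.05), and of 14 node and axon contact partners 7 (median 0.01), a share near that of all genes, with Nrg1 (0.24, adjusted p = 0.207), Erbb3 (0.20, adjusted p = 0.223) and Cntn2 (0.07, adjusted p = 0.557) first. Enpp6, of newly formed oligodendrocytes, differed by 0.16 (adjusted p = 0.629), Vcan, of precursors, by 0.15 (adjusted p = 0.160) and Neu4 by -0.12 (adjusted p = 0.328). Without the 2 libraries of discordant sex 24 of the 27 mature genes (median 0.07), 11 of 12 factors (0.08), 10 of 14 precursor genes (0.04) and 7 of 14 contact partners (-0.0041) were higher, and none was called.

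Among the marker lists of other cells, 7 of 7 thalamus genes (median 0.20) and 5 of 7 striatum genes (median 0.20) were higher in mutants over all times and 8 of 8 choroid plexus genes lower (median -1.74), none of them called. In WT libraries the thalamus markers summed to 84.8 to 133 CPM and those of choroid plexus to 46.2 to 8165 CPM. In mutant libraries these sums were 88.2 to 235 CPM for thalamus and 57.5 to 3687 CPM for choroid plexus. In all these lists the pooled fit called only Gja1, the astrocyte gap junction protein (log2 fold change 0.13, edgeR adjusted p = 0.0352), and Tdo2, on the dentate granule cell list (0.41, adjusted p = 0.0243). Without the 2 libraries of discordant sex Gja1 was no longer called (0.11, adjusted p = 0.0557), Tdo2 was (0.45, adjusted p = 0.00816), and so were 2 of the 8 choroid plexus genes and 1 of 4 leptomeninges genes, these 3 lower in mutants. The part of these other tissues in the small genotype difference of the 9 genes was not tested.

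**Figure D4:**
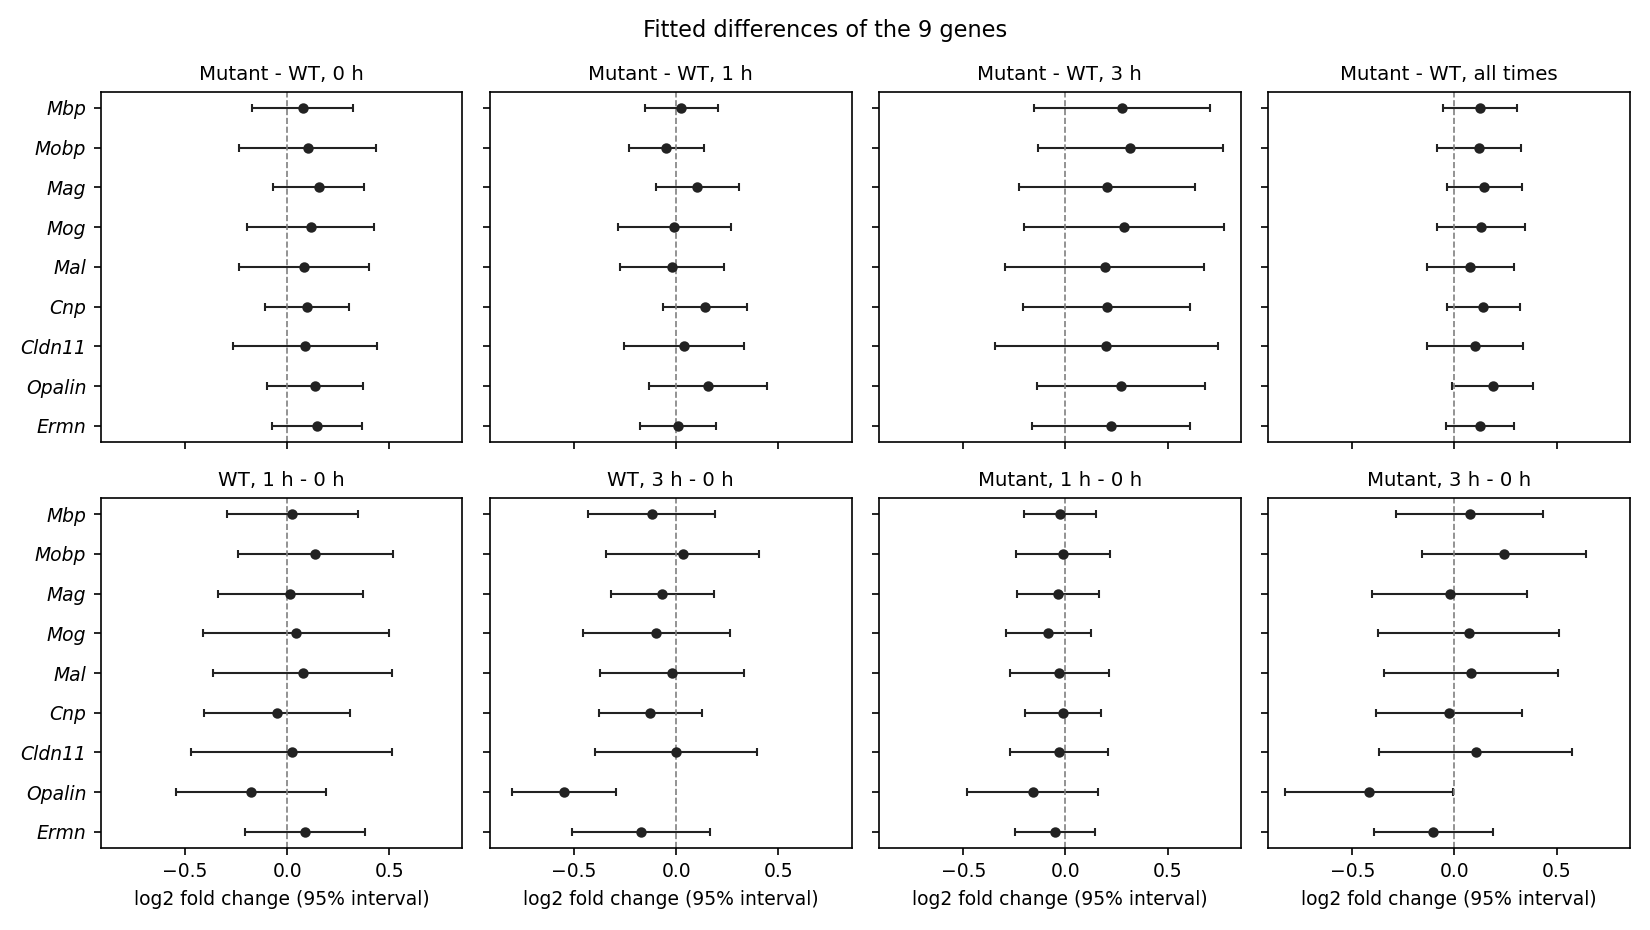
Fitted log2 fold change (x axis) with its 95% interval for each of the 9 genes (y axis) in 8 comparisons. Every interval spans 0 but those of Opalin at 3 h against 0 h, from -0.80 to -0.29 in WT and from -0.83 to -0.01 in mutants.

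Training was compared within each genotype. At 1 h against 0 h, 7 of the 9 genes were higher in WT (median 0.03, background 47.9% of 17319 genes) and all 9 lower in mutants (median -0.03, background 52.8% lower of 17282 genes). No gene of the set was called in either, against 0% of all genes in WT and 0.312% in mutants, nor had any an unadjusted p under 0.05, against 5.36 and 11.1% of all genes. Without the WT 1 h library labelled male 1, 6 of 9 were higher in WT (median 0.05). In mutants the median was 0.017 without the 1 h library labelled male 1 and -0.091 without that labelled female 3, and 7 of the 9 genes changed sign with 1 library left out. The 95% interval of Mbp was -0.30 to 0.35 in WT and -0.20 to 0.15 in mutants.

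At 3 h against 0 h Opalin had the largest fitted difference of the set in both genotypes. In WT it ran from 25.0 through a median of 33.2 to 39.2 CPM at 0 h, from 21.1 through 26.5 to 38.7 CPM at 1 h and from 16.8 through 21.9 to 28.0 CPM at 3 h. All 6 libraries at 3 h were under the 0 h mean, 4 of 6 were under every 0 h library, and the ranges overlapped only between 25.0 and 28.0 CPM. The log2 fold change was -0.55 (SE 0.12, 95% interval -0.80 to -0.29) with an edgeR unadjusted p of 0.000469. The edgeR adjusted p over 17438 genes was 0.394, so Opalin was not called (0% of all genes were called and 8.23% had an unadjusted p under 0.05). The 2 DESeq2 fits gave the same size, -0.55 with sex and -0.56 without a covariate, and called it with adjusted p = 0.00467 and 0.0341, 1 of 62 and 1 of 51 genes. With each library left out in turn edgeR's value stayed between -0.62 and -0.46 and its adjusted p between 0.153 and 0.760.

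In mutants Opalin ran from 26.9 through 34.1 to 46.0 CPM at 0 h, from 25.2 through 31.5 to 39.8 CPM at 1 h and from 19.9 through 25.4 to 40.5 CPM at 3 h. At 3 h 4 of 6 libraries were under every 0 h library and 1, the library labelled female 2, was above the 0 h mean. The log2 fold change was -0.42 (SE 0.19, unadjusted p = 0.0474 against 8.57% of all genes under 0.05, edgeR adjusted p = 0.578), and DESeq2 with sex did not call it (adjusted p = 0.448). Without the library labelled female 2 the 3 h range was 19.9 to 27.5 CPM and the log2 fold change -0.59 (edgeR adjusted p = 0.163). The difference between the genotypes in this response was 0.15 (SE 0.24, 95% interval -0.34 to 0.64, edgeR adjusted p = 1.00) with all libraries and -0.039 without those of discordant sex.

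The other 8 genes had smaller fitted differences. At 3 h against 0 h in WT, 7 of them were lower and Mobp higher, with log2 fold changes of -0.17 (Ermn) to 0.03 (Mobp) and intervals that all spanned 0. In mutants 5 of the 9 were higher and 4 lower, with a median of 0.07, from -0.42 (Opalin) to 0.24 (Mobp). Without the library labelled female 2 the count in mutants was 1 higher and 8 lower (median -0.11). In that fit 6 of 7 striatum markers (median -0.32) and 5 of 7 thalamus markers (median -0.21) were also lower, and 4 of 6 dentate granule cell markers higher (median 0.24), none of them called. With all libraries these lists had 6 of 7 lower (-0.38), 4 of 7 lower (-0.07) and 4 of 6 higher (0.15), and in WT 2 of 7 lower (0.06), 4 of 7 lower (-0.03) and 3 of 6 higher (0.07). Their part in the values of the 9 genes was not tested. At 3 h against 1 h all 9 were lower in WT (median -0.11) and 6 of 9 higher in mutants (median 0.10), but 1 of 9 higher without that library (median -0.04). Without the WT 1 h library labelled male 1 all 9 were still lower in WT (median -0.10). The WT median was -0.21 without 3 h male 2 and -0.03 without 3 h female 2. Without WT 1 h male 1, 6 of 7 astrocyte genes (median -0.12), 5 of 6 microglia genes (-0.13) and 5 of 7 thalamus genes (-0.14) were also lower. In that fit 7 of 8 choroid plexus genes (0.11) and 6 of 7 striatum genes (0.11) were higher. No gene of these lists was called, and their part was not tested. Background shares were 51.4% lower of 17438 genes at 3 h against 0 h in WT, 47.9% higher in mutants, 49.3% lower at 3 h against 1 h in WT and 50.7% higher in mutants. No gene of the set was called in these comparisons by edgeR, which called 0% of all genes. Apart from Opalin against 0 h none had an unadjusted p under 0.05, against 7.41% of all genes at 3 h against 1 h in WT and 8.04% in mutants. Without the library labelled female 2 Opalin had such a p at 3 h against 1 h in mutants too (-0.40 against -0.26 with it, unadjusted p = 0.00303, edgeR adjusted p = 0.229, where 8.99% of all genes had p under 0.05 and 0.104% were called).

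Of the 27 other mature oligodendrocyte and myelin genes 25 were lower at 3 h than at 0 h in WT (median -0.17), none of them called and 7 with an unadjusted p under 0.05, where 51.4% of all genes were lower and 8.23% had such a p. Aspa, which cleaves N-acetylaspartate, went from 20.8 ± 4.32 to 14.7 ± 2.13 CPM (SD, n = 6; log2 fold change -0.48, SE 0.11, edgeR adjusted p = 0.421). Gjb1, the gap junction protein connexin 32 by its common name, went from 14.8 ± 2.30 to 11.4 ± 1.20 CPM (-0.37, adjusted p = 0.421), and Nipal4 had -0.28 (adjusted p = 0.720). In mutants 18 of the 27 were lower (median -0.04), with Hapln2 at 0.31 (adjusted p = 0.428), Nipal4 at -0.29 (adjusted p = 0.816) and Aspa at -0.27 (adjusted p = 0.757) the largest. Without the library labelled female 2, 24 of the 27 were lower (median -0.17), 9 with an unadjusted p under 0.05 and none called, where 52.3% of all genes were lower and 11.2% had such a p, with Hapln2 at 0.24 (adjusted p = 0.347), Nipal4 at -0.47 (0.461) and Aspa at -0.41 (0.333). In the same comparison 8 of 12 lineage transcription factors were higher at 3 h in WT and 8 in mutants (medians 0.05 and 0.02), and 6 of 14 precursor genes in WT and 8 in mutants (medians -0.02 and 0.05). Without the library labelled female 2 the counts in mutants were 6 of 12 factors (median -0.02) and 8 of 14 precursor genes (median 0.03). The largest among the factors in WT were Zfp488 (0.25, adjusted p = 0.756), Nkx6-2 (-0.24, adjusted p = 0.606) and Nkx2-2 (-0.23, adjusted p = 0.777), and among the precursor genes Enpp6 (-0.26, adjusted p = 0.657), Bmp4 (-0.26, adjusted p = 0.712) and Matn4 (0.23, adjusted p = 0.705).

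Because the 9 genes vary together between libraries, each was also set against the mean log2 CPM of the other 8 in the same library. This measure was chosen after the levels had been seen and is given without a test. Relative to the other 8, Opalin in WT ran from -3.59 through a median of -3.19 to -3.05 at 0 h, from -3.74 through -3.50 to -3.31 at 1 h and from -3.84 through -3.80 to -3.55 at 3 h. In mutants it ran from -3.75 through -3.10 to -3.04 at 0 h, from -3.70 through -3.36 to -3.22 at 1 h and from -4.03 through -3.68 to -3.47 at 3 h. In both genotypes the mean at 1 h lay between those at 0 h and 3 h, and the ranges at 0 h and 3 h overlapped.

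Mobp went the other way on this measure. In WT it had a mean of 0.72 ± 0.15 at 0 h, 0.87 ± 0.11 at 1 h and 0.91 ± 0.06 at 3 h above the other 8, on the log2 scale (SD, n = 6). In mutants it had 0.72 ± 0.11, 0.77 ± 0.09 and 0.99 ± 0.05, and all 6 mutant libraries at 3 h (0.94 to 1.08) were above all 6 at 0 h (0.58 to 0.85) and all 6 at 1 h (0.68 to 0.90). Measured against the members in the same way, 0.011% of 18186 genes had all libraries at 3 h above all at 0 h in mutants and 0.0165% above all at 1 h. Opalin is among the 8 genes that Mobp is set against, and without it the 3 h and 0 h ranges in mutants still did not overlap, at 0.51 to 0.61 and 0.21 to 0.39. The library labelled female 2 stood at 0.95 on this measure, within the range of its group. The only other gene of the set with separate groups in any pairwise comparison was Cnp, higher in mutants than in WT at 1 h by 0.11. In that direction 0.055% of all genes were separate, a share that counts Cnp and has the same limit.

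**Figure D5:**
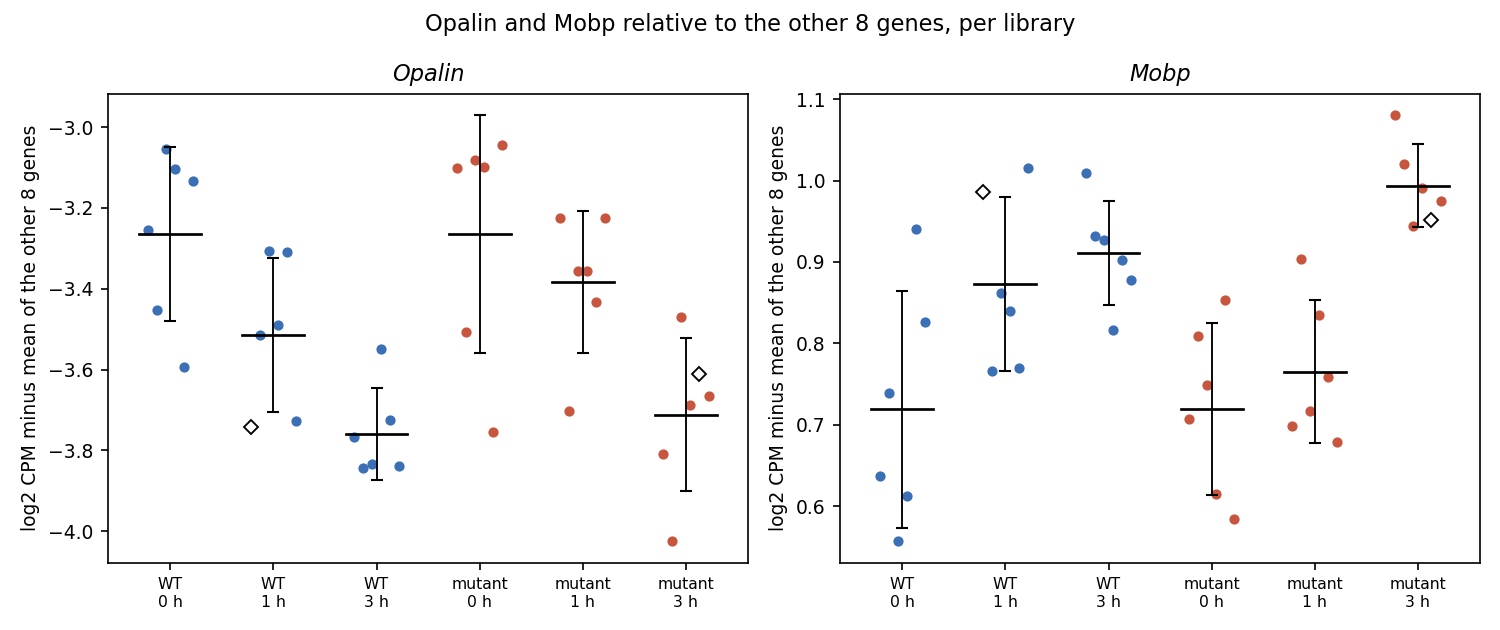
Log2 CPM of Opalin (left) and Mobp (right) minus the mean of the other 8 genes (y axis) in each library, by genotype and time (x axis); bars are group means and whiskers 1 SD (n = 6), open diamonds the 2 libraries of discordant sex. Opalin is lowest at 3 h in both genotypes, with means of -3.76 in WT and -3.71 in mutants, and the 6 mutant libraries of Mobp at 3 h lie above those at 0 h and 1 h.

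The difference between genotypes in the response was tested for every gene. For the 1 h response 7 of 9 were more negative in mutants (median -0.06, background 50.7% of 17907 genes), and for the 3 h response all 9 were more positive (median 0.12, background 49.3% of 17926 genes). Neither edgeR fit called any gene of the set or any other gene (0%), and none of the 9 had an unadjusted p under 0.05, against 3.78% of all genes for the 1 h and 1.52% for the 3 h response. Without the libraries of discordant sex 8 of 9 were more negative for the 1 h response (median -0.08). The 3 h result rested on the library labelled female 2, without which the median was -0.04 and 3 of 9 were more positive. The widest interval for the 3 h response was that of Cldn11, from -0.50 to 0.73. Without the libraries of discordant sex, 6 of 7 striatum genes (median -0.25) and 7 of 8 choroid plexus genes (-0.35) were more negative for the 1 h response. For it 5 of 6 neuron genes were more positive (0.05). For the 3 h response 6 of 7 striatum (-0.44) and 6 of 7 thalamus genes (-0.35) were more negative and 8 of 8 choroid plexus genes more positive (0.87). None of them was called, and their part was not tested.

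Male libraries, by label, were higher than female ones for all 9 genes over all groups (median 0.07, background 48.8% of 18186 genes). With all libraries none was called or had an unadjusted p under 0.05, against 0.0825 and 5.08% of all genes. The largest was Mbp, at 0.12 on the log2 scale (SE 0.09) with an edgeR adjusted p of 0.988 and 12 of 18 male libraries above the female mean. Under the alternative settings, each library left out among them, Mbp ran from 0.09 to 0.20. Mag, the middle of the 9 genes, ran from 0.036 to 0.12. Without the 2 discordant libraries all 9 were higher in males (median 0.12, background 50.2%), none called, and 1 had an unadjusted p under 0.05 (7.78% of all genes): Mbp, at 0.20 (SE 0.08, unadjusted p = 0.0249, edgeR adjusted p = 0.565). Markers of choroid plexus were higher in males for 8 of 8 genes (median 1.27 with all libraries and 1.69 without those 2) and CA3 markers lower for 5 of 5 (medians -0.10 and -0.11), none of them called, and their part in the difference of the 9 genes was not tested.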

How the data were processed

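Per the labels, the study's methods and the submitters' processing notes, paired 150 bp reads were aligned by the authors to mm10 with STAR 2.7.8a and counted with featureCounts 2.0.1, and each deposited file lists unnormalized counts, 1 for each gene, of a single library. Annotation, strand setting and multimapping are not given in the sources used here. Of 44 samples, 36 had a file and 8 whole-hippocampus samples were not analysed here. Gene IDs were named from RefSeq (25275 of 27179, where the other 1904 held 1.28% of counts), which also gave the positions. Exon length, strand and overlapping genes came from GENCODE M21.

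The counts were fitted with edgeR 4.0.16 (R 4.3.3): filterByExpr with a minimum count of 10, TMM scaling, sex as labelled as covariate, the quasi-likelihood F-test and Benjamini-Hochberg adjustment over all genes tested, with calls at 0.05. Each pairwise comparison used its own 12 libraries, the response difference 24 and the pooled genotype and sex comparisons 36. CPM are TMM-scaled, and log2 CPM used a prior count of 2. DESeq2 1.42.0, RLE factors, other filters, no covariate, 1 fit of all libraries, a replicate block, the discordant libraries left out and each library left out were the alternatives. On simulated data for the genotype comparison at 0 h (17336 genes), 8 of 50 genes simulated with a log2 change of 0.25 were recovered, 26 of 50 with 0.5, 37 with 1 and 44 with 1.5, and 5 unchanged genes were also called. Counting error is small at these depths (the lowest count of Opalin was 1123), so the spread between mice sets the precision.

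The 9 genes and the gene lists were chosen with earlier results of these data known. The text names the 9 genes in every comparison, from the lists every gene called and otherwise the 3 with the largest change in the comparisons discussed, and the 10 genes most correlated with the mean score, except that some results under this rule are not reported here. Correlations used log2 CPM with group and sex means removed.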

Additional observations from a re-analysis of the deposited data

Results flagged for a closer look

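The level of each of the 9 genes was searched in each of the 6 groups for a library far from the rest, 54 searches in all, of which chance alone flags about 1 in 20. In 1 of them a library stood apart. Opalin in the mutant 3 h library labelled female 2 had 40.5 CPM, where the next highest library of that group had 27.5 CPM, a gap of 0.634 of the group's range, above Dixon's 95% critical value for 6 libraries. This library carries male transcripts under a female label and was the highest of all 36 for 7 of the 9 genes. No gene of the set passed the test of a different response between genotypes.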

How the results depend on the processing

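Of 981 values of single genes under the other settings, 27 had the opposite sign and 2 passed the threshold where the value reported did not. Those 2 are Opalin in WT at 3 h against 0 h under DESeq2 with sex and DESeq2 without covariate, so that 1 gene of the set was called in that comparison by each and 0 by edgeR. All values of opposite sign were uncalled. Leaving out the 2 libraries of discordant sex gave, in the genotype difference at 1 h, Mobp 0.0044, Mog 0.072, Mal 0.054 and Ermn −0.020, in WT 1 h against 0 h Cldn11 −0.012, and in mutant 3 h against 0 h Mbp −0.091, Mog −0.11, Mal −0.052 and Cldn11 −0.054. It also gave, in mutant 3 h against 1 h, Mbp −0.044, Mag −0.11, Mog −0.0035, Mal −0.0018 and Cldn11 −0.0018, for the genotype difference in the 1 h response Opalin −0.030, and for that in the 3 h response Mag −0.10, Mog −0.015, Mal −0.037, Cnp −0.068, Cldn11 −0.062 and Opalin −0.039. Cldn11 in WT 3 h against 0 h was 0.0071 under DESeq2 without covariate, 0.0063 with no sex covariate and 0.0054 in 1 fit of all 36 libraries.

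Same-numbered libraries of 2 groups did not deviate together in every pair (correlations of −0.0061 to 0.23 for genotype at 0 h, 4 of 6 above 0.1, and 4 of 6 libraries correlated best with their own number). For WT 3 h against 1 h 0 of 6 libraries correlated best with their own number. These values do not settle whether same-numbered libraries belong together, and the main fits did not pair them. With the number as a replicate block no gene of the set was called in any comparison, Mog in the genotype difference at 1 h was 0.016, Cldn11 in WT 3 h against 0 h 0.0043 and Mag in mutant 3 h against 1 h −0.026. The block moved the count of all genes called in the genotype comparison at 1 h from 0 to 5 and in mutants at 1 h against 0 h from 54 to 37.

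With each library left out in turn, 158 of 2052 values changed sign and none was called. Their log2 ranges were, for the genotype difference at 0 h, Mal −0.022 to 0.17 and Cldn11 −0.015 to 0.19, and for that at 1 h Mobp −0.098 to 0.0044, Mog −0.093 to 0.072, Mal −0.080 to 0.054, Ermn −0.035 to 0.054, Cldn11 −0.035 to 0.12 and Mbp −0.033 to 0.075. For WT 1 h against 0 h they were Cnp −0.15 to 0.043, Mbp −0.064 to 0.13, Cldn11 −0.098 to 0.16, Mag −0.087 to 0.11, Mog −0.066 to 0.14 and Mal −0.049 to 0.17. For WT 3 h against 0 h they were Mal −0.10 to 0.071, Cldn11 −0.089 to 0.098, Mobp −0.049 to 0.13, Mag −0.13 to 0.011 and Mog −0.17 to 0.0011, and for WT 3 h against 1 h Cnp −0.18 to 0.00075 and Cldn11 −0.15 to 0.074. For mutant 1 h against 0 h they were Mbp −0.091 to 0.017, Mobp −0.087 to 0.044, Mag −0.11 to 0.013, Mal −0.10 to 0.040, Cnp −0.059 to 0.050, Cldn11 −0.11 to 0.039 and Ermn −0.11 to 0.0070. For mutant 3 h against 0 h they were Mag −0.16 to 0.074, Cnp −0.19 to 0.059, Mog −0.11 to 0.18, Mbp −0.091 to 0.17, Mal −0.052 to 0.21 and Cldn11 −0.054 to 0.23. For mutant 3 h against 1 h they were Mag −0.11 to 0.12, Cnp −0.16 to 0.079, Ermn −0.10 to 0.026, Mbp −0.044 to 0.19, Mog −0.0035 to 0.26, Mal −0.0018 to 0.22 and Cldn11 −0.0018 to 0.24. For the genotype difference in the 1 h response they were Cnp −0.048 to 0.13, Opalin −0.066 to 0.13, Mbp −0.15 to 0.030, Mag −0.14 to 0.048, Mal −0.20 to 0.0030 and Cldn11 −0.19 to 0.050. For that in the 3 h response they were Ermn −0.025 to 0.19, Mag −0.10 to 0.16, Mog −0.015 to 0.30, Mal −0.037 to 0.25, Cnp −0.068 to 0.21, Cldn11 −0.062 to 0.25 and Opalin −0.039 to 0.23. For sex over all groups Mog was −0.0054 to 0.086. The median over the 9 genes changed sign with 1 library left out for genotype at 1 h (−0.034 to 0.075), WT 1 h against 0 h (−0.066 to 0.13), WT 3 h against 0 h (−0.17 to 0.0011), mutant 1 h against 0 h (−0.091 to 0.017), mutant 3 h against 0 h (−0.11 to 0.17) and 1 h (−0.044 to 0.19), and both response differences (−0.15 to 0.030 and −0.037 to 0.25).

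The count of all genes called depended on the tool. DESeq2 with sex called 100 genes for genotype at 1 h, 62 for WT and 127 for mutants at 3 h against 0 h, 367 for mutants at 1 h against 0 h and 561 for genotype over all times, where edgeR called 0, 0, 0, 54 and 237. The cause was not tested. The limits are the spread between mice, which left the intervals given above with 6 libraries a group, and bulk tissue, in which dissection and cell number are not separate from expression. Strand use in counting is not given in the sources used here.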
